A study of Saccharomyces cerevisiae with 8 samples.

Results

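The small subunit of the yeast ribosome is built from 18S rRNA and a set of RPS proteins, encoded by the genes RPS0A to RPS31. Members were every feature of the raw count file whose systematic name is on a list of 56 RPS genes. Of these, 55 were found among 4928 features, and all 55 passed the filter on low counts that left 4901 genes. RPS26A (YGL189C) is not among the features and was not analysed here. The members form 23 pairs of duplicated genes, called A and B copies, and 9 further genes, among them RPS2, RPS3, RPS12, RPS13, RPS15, RPS20, RPS31 and RPS26B.

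Ribosomal protein genes are transcribed by RNA polymerase II, and in growing yeast they are known as a coregulated group. Rap1 and Fhl1 bind their promoters, Fhl1 recruits the coactivator Ifh1, and the TORC1 and protein kinase A pathways set their activity to nutrient supply. Heat shock is known to lower their transcription for a time while chaperone genes are induced. Srb10, also called Cdk8 and listed as SSN3, is the kinase of a detachable module of Mediator, the complex that links DNA-bound activators to RNA polymerase II.

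Newly made RNA was measured by 4tU-seq, in which 4-thiouracil is fed to cells briefly and only thiolated transcripts are pulled down for sequencing. There were 2 libraries in each of 4 groups: 1-NA-PP1 with heat shock, DMSO with heat shock, 1-NA-PP1 at steady state and DMSO at steady state. Cells of all 4 groups were haploid, of mating type alpha, and lacked ADE2, HIS3, LEU2, LYS2, MET15, TRP1 and URA3. In all groups the chromosomal SRB10 gene was replaced by KanMX, and the plasmid pSH599 (ARS CEN TRP1) carried srb10as-1 with the change Y236G, a kinase form that the bulky ATP analogue 1-NA-PP1 can block. Growth was at 30 °C, started at an OD600 of 0.1 and ended at 0.8, when 6 µM 1-NA-PP1 or its solvent DMSO was given for 12 minutes. The heat shock groups were held at 37 °C for 12 minutes. The 4tU label (5 mM) was present for 5 minutes, and libraries were made from 100 ng RNA. No strain with unmodified Srb10 is among these groups, so effects of the compound outside the kinase cannot be told apart from effects through it. Whether replicates came from separate cultures is not stated in the labels, and p-values measure only the spread between these libraries, which may be technical.

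Total counts were 14680275 to 17743527 in the heat shock libraries and 60372371 to 65134744 in the steady state libraries. Members took 0.229% to 0.292% of the counts under heat shock, against 0.304% to 0.545% at steady state. Transcripts of the alpha cell genes MF(ALPHA)1, STE3 and SAG1 had at least 3005 counts in every library, and the a cell pheromone genes MFA1 and MFA2 had at most 12. Of the other a cell genes looked up, STE2 had 361 to 853 counts and BAR1 had 115 to 443. The second 1-NA-PP1 steady state library stood apart in the RPS genes. The median member was 0.50 higher on the log2 scale in replicate 1 than in replicate 2 of that group, while the median absolute difference over all genes was 0.13. The main counts of called members and median member changes that rest on this group are therefore given with and without each of its libraries. Other values that rest on it use both libraries, such as percentiles, counts without overlap or at an unadjusted p, and large subunit and regulator values. All values are relative to the bulk of genes, and a change of total RNA synthesis was not measured.

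The upstream sequences below show members with large, small and pair-specific changes under heat shock. Each is the 300 bases before the transcript start in the authors' file, on the RefSeq copy of the build R64 (sacCer3), read 5′ to 3′ on the gene's strand. Capitals mark the Rap1 core ACCCNNNCA (the longer runs) and the Fhl1 core GACGC (the shorter runs), each searched on both strands.
RPS13 (chrIV:579137-579436, plus strand): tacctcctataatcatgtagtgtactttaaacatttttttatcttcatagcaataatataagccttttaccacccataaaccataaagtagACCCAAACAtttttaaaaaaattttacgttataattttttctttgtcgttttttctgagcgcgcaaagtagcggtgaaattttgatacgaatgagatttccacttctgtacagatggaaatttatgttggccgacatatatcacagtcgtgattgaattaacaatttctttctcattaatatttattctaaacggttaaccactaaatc
RPS22B (chrXII:855555-855854, plus strand): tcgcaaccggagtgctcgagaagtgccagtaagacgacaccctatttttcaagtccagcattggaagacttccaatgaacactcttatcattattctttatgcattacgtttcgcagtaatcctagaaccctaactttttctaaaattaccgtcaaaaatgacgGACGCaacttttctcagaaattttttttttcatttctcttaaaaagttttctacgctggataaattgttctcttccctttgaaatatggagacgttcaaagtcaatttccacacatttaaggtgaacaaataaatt
RPS14A (chrIII:178242-178541, minus strand): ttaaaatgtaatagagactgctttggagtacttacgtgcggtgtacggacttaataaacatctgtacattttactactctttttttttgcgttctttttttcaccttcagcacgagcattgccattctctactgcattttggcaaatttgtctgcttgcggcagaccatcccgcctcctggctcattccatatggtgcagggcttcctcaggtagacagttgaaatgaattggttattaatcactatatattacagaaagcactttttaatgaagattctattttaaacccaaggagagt
RPS14B (chrX:73463-73762, plus strand): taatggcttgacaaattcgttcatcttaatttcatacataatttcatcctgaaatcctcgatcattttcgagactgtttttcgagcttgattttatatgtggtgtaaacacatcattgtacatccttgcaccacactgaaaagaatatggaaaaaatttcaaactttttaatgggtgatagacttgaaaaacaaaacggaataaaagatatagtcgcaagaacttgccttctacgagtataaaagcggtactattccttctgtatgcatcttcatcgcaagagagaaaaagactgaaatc
RPS9A (chrXVI:404618-404917, plus strand): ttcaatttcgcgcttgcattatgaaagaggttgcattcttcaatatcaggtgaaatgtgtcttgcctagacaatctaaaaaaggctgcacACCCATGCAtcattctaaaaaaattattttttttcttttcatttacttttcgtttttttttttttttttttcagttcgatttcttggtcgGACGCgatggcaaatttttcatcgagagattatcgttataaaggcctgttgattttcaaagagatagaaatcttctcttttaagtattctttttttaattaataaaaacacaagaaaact
RPS9B (chrII:604182-604481, plus strand): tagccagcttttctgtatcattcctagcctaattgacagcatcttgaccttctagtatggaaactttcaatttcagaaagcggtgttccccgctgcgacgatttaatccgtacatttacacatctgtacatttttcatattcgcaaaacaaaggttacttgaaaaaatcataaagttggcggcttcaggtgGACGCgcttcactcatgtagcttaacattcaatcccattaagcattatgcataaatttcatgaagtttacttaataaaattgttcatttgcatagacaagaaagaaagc
RPS2 (chrVII:277219-277518, plus strand): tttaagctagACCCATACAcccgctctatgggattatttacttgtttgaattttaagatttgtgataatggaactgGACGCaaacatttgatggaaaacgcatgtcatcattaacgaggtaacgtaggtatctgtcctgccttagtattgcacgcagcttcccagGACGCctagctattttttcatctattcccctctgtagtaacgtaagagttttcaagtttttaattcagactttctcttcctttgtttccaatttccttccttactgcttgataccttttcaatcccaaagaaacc
The Rap1 core was present in 17 of 55 member windows (30.9%), against 8.54% of all 4928 windows of this length. The Fhl1 core was present in 25 member windows (45.5%), against 20% of all windows. RPS13, the member with the largest fall with DMSO, held a Rap1 core that began 209 bases before the transcript start and no Fhl1 core. RPS2, one of the members that changed least, held a Rap1 core at 290 bases and Fhl1 cores at 224 and 135 bases. Neither core was found in the windows of RPS14A and RPS14B. Looser forms of these sites were not searched, and a match is a description of letters, not of bound protein. The stress element AGGGG was found in 23.6% of member windows and in 23% of all windows. The cores of ribosome biogenesis promoters were no more frequent in member windows than in all windows: AAAATTTT (RRPE) in 5.45% against 11.1%, and GATGAG (PAC) in 16.4% against 20.8%.

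Read counts of A and B copies are separable only where the copies differ in sequence. Coding identity within pairs ran from 84.3% (RPS27) to 99.2% (RPS6), and 9 pairs encode identical proteins. The last 120 coding bases of the RPS6 and RPS14 pairs are shown as the near-identical and a more divergent case, with the bases that differ between copies in capitals.
RPS6A (chrXVI:377291-377410, minus strand): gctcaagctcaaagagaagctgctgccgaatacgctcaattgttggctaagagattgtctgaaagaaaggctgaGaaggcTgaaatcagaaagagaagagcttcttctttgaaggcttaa
RPS6B (chrII:591712-591831, minus strand): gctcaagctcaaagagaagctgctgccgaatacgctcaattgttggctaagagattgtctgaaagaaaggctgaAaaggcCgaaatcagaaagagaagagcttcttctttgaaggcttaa
RPS14A (chrIII:177500-177619, minus strand): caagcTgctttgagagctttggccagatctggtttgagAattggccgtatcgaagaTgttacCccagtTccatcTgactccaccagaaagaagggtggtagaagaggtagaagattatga
RPS14B (chrX:74492-74611, plus strand): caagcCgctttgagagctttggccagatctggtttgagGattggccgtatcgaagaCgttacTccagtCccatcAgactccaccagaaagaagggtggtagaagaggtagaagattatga
In this stretch RPS6A and RPS6B differ at 2 bases, and RPS14A and RPS14B at 6. Over the whole transcript, 39.0% of the 50-base stretches of RPS6A occur elsewhere in the genome, as do 42.1% of those of RPS6B. The RPS4 pair (31.3% for A and 29.3% for B) and the RPS24 pair (14.3% for A and 13.7% for B) are among the others at 10% or more. How reads that fit both copies were counted is not given in the sources used here, so values of the 8 genes of the 4 pairs at 10% or more are uncertain. In 8 pairs no 50-base stretch was shared.

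Per unit length, newly made RNA of the median RPS gene lay near the middle of the range of yeast genes in DMSO steady state libraries and lower in the other groups. Levels were taken as RPKM (counts scaled to library size and to transcript length, from the authors' file). The median member was at percentile 26.9 of the genes tested in 1-NA-PP1 heat shock, 34.4 in DMSO heat shock, 39.2 in 1-NA-PP1 steady state and 52.2 in DMSO steady state libraries. In DMSO steady state libraries the median RPKM of the members was 75.4 and 81.8, and that of all genes 74.4 and 74.6. There 10 members were above percentile 75 and 5 below percentile 25. Large subunit genes (79 RPL and RPP genes) had median percentiles of 28.2 in 1-NA-PP1 heat shock, 37.1 in DMSO heat shock, 40.4 in 1-NA-PP1 steady state and 50.8 in DMSO steady state libraries. The median member's transcript was 923 bases long, against 1435 bases over all genes. The 684 other genes between the quartiles of member length (837.5 and 1091 bases) had a median percentile of 36.8 in 1-NA-PP1 heat shock, 37.6 in DMSO heat shock, 41.1 in 1-NA-PP1 steady state and 42 in DMSO steady state libraries. Across all genes, length and RPKM had a Spearman correlation of 0.26, a description over genes that share libraries. Feature length includes introns. In DMSO steady state libraries the 36 members with an intron had a median of 76.5 RPKM, and the 19 without one had 96.1 RPKM. The parts of length and of introns in the members' level were not tested.

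RPS27A (YKL156W) had the highest level, with 178 ± 10.9 RPKM in 1-NA-PP1 heat shock, 224 ± 51.3 in DMSO heat shock, 260 ± 47.5 in 1-NA-PP1 steady state and 335 ± 40.9 in DMSO steady state libraries (SD, n = 2). Its feature overlaps RSM22 on the opposite strand, and strand use in counting is not stated, so this level is uncertain. RPS15 and RPS20, which sit in the head of the subunit and each have a single gene, followed with means over 8 libraries of 200.0 and 186 RPKM. These neighbours in rank do not differ beyond their spread: in DMSO steady state libraries RPS15 had 260 ± 17.8 RPKM and RPS20 247 ± 25.1 RPKM. RPS9B, RPS2 and RPS13 were also high, at 139, 122 and 116 RPKM.

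At the other end RPS30B (YOR182C), a copy of the small eS30 gene, had 5.10 ± 0.75 RPKM in 1-NA-PP1 heat shock, 5.05 ± 0.52 in DMSO heat shock, 7.21 ± 1.65 in 1-NA-PP1 steady state and 10.01 ± 0.53 in DMSO steady state libraries. RPS21A, RPS12 and RPS7A were also low, with means over 8 libraries of 13.2, 13.5 and 18.6 RPKM. The partners of the low copies were higher per length: RPS30A had 78.2 RPKM, RPS21B 82.6 and RPS7B 79.1. RPS12, a protein of the beak with a single gene, overlaps RAD17 on the opposite strand.

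**Figure D1:**
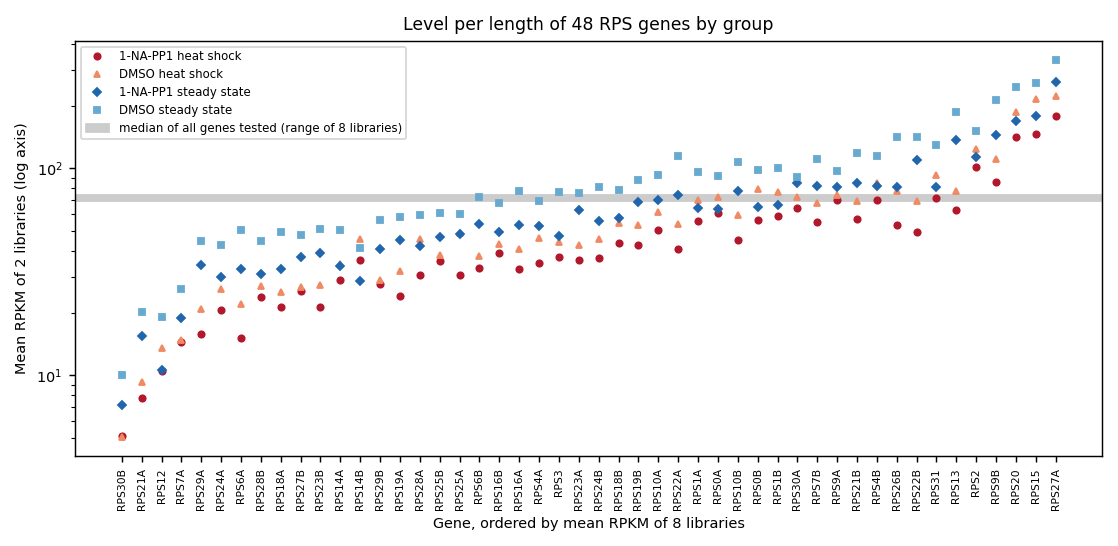
Mean RPKM of 2 libraries (log axis) for 48 of the 55 RPS genes, ordered by the mean over 8 libraries, in 4 groups; the grey band is the range of the median over all genes tested. Levels run from RPS30B at the left to RPS27A at the right, and most members lie below the band in the heat shock groups.

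Heat shock lowered newly made RPS RNA relative to the bulk of genes. With DMSO, 39 of 55 members fell and 0 rose in edgeR's quasi-likelihood test at a Benjamini-Hochberg adjusted p under 0.05, where 28.9% of all genes fell and 29.6% rose. The count of 39 was higher when either 1-NA-PP1 steady state library, neither part of this comparison, was left out. The median log2 change of the members was -0.71, with a range of -1.27 (RPS13) to 0.13 (RPS14B), beside a median of -0.01 over all genes. Both heat shock libraries were below both steady state libraries in 52 members, a pattern that 43% of all genes showed, and above them in 1 member, RPS14B, a pattern of 40.9% of all genes. Large subunit genes gave 63 of 79 lower, with a median of -0.68. In these bulk samples, fewer cells making a transcript and less of it per cell cannot be told apart.

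RPS13 (YDR064W), which encodes uS15, lies on chromosome IV at 579437 to 580559. It had 86.2 and 87.4 CPM (counts scaled to library size with TMM factors) in DMSO heat shock libraries, against 204 and 214 CPM in DMSO steady state libraries. The heat shock values lay far below the others, with a log2 change of -1.27 (SE 0.14, adjusted p = 0.000152, edgeR). RPS6A (YPL090C), a copy of the gene for the phosphoprotein eS6, had 30.2 and 26.0 CPM with heat shock, against 60.2 and 67.2 CPM at steady state. Its log2 change was -1.18 (adjusted p = 0.000646, edgeR), and that of its near-identical copy RPS6B was -0.96 (adjusted p = 0.000858, edgeR). RPS21A (YKR057W), a low copy of the eS21 gene, had 6.79 and 7.85 CPM with heat shock, against 13.8 and 18.4 CPM at steady state. RPS29A (YLR388W), a copy of the gene for the zinc-binding head protein uS14, had 16.2 and 16.9 CPM with heat shock, against 34.0 and 36.4 CPM at steady state. RPS21A changed by -1.14 and RPS29A by -1.09 on the log2 scale, and neither overlapped between the groups.

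The members with the smallest changes were RPS14B, RPS15, RPS0B and RPS2, none of which passed the test. RPS14B (YJL191W) encodes uS11 of the platform, whose protein is known to repress its own RPS14B transcript. It had 42.2 and 44.3 CPM in DMSO heat shock libraries, against 39.8 and 39.1 CPM in DMSO steady state libraries (log2 change 0.13, SE 0.17, adjusted p = 0.521, edgeR). Its heat shock values were slightly above the others without overlap. With library totals alone in place of TMM its log2 change was -0.07, where the median of all genes was -0.21. RPS2 (YGL123W), a protein of the mRNA entry channel, had 119 and 115 CPM with heat shock, against 140.5 and 148 CPM at steady state. The RPS2 groups did not overlap, and its log2 change was -0.30 (adjusted p = 0.0700, edgeR). RPS15 had a log2 change of -0.27 and RPS0B, a protein that joins late in subunit maturation, one of -0.30.

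Among the members outside the pairs, RPS13 (-1.27), RPS26B (-0.88) and RPS3 (-0.81) fell with DMSO. RPS26B, whose copy RPS26A is not among the features, encodes eS26 at the mRNA exit channel, and RPS3 encodes uS3 at the entry channel. Without DMSO steady state replicate 2 neither was called (RPS26B -0.83, adjusted p = 0.0538, and RPS3 -0.73, adjusted p = 0.0577, edgeR), nor was RPS26B without DMSO heat shock replicate 1 (adjusted p = 0.0737) or RPS3 without DMSO heat shock replicate 2 (adjusted p = 0.0544). The log2 changes of RPS31 (-0.49), RPS12 (-0.49), RPS20 (-0.41), RPS2 (-0.30) and RPS15 (-0.27) did not pass. RPS31 makes a ubiquitin fused to eS31, and its feature overlaps UPS2 on the opposite strand. RPS31 was called lower under 7 of 13 alternatives, among them DESeq2 (adjusted p = 0.0388) and the replicate block (adjusted p = 0.0424, edgeR). RPS2 was called lower under 5, RPS12 and RPS15 under 3 each and RPS20 under 2 of 13. These alternatives, and those counted for other members in this comparison, left out no 1-NA-PP1 library. Leaving out either 1-NA-PP1 steady state library raised the count of members called lower, so such tallies may be low. RPS20 had 62.3 and 109 CPM with heat shock, against 105.5 and 122 CPM at steady state, so its groups overlapped. RPS28A, with 19.96 and 11.4 CPM with heat shock, against 18 and 23.1 CPM at steady state, was the other member whose groups overlapped in this comparison.

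**Figure D2:**
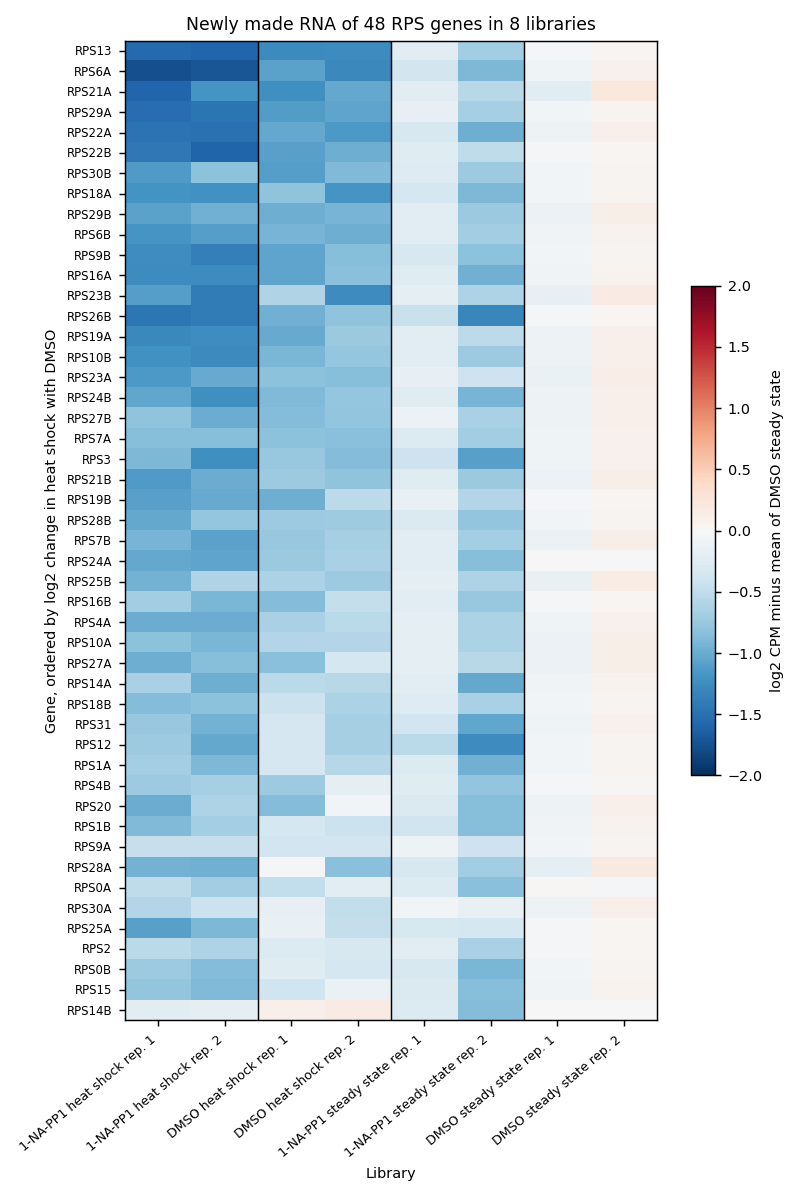
Each cell is a member's log2 CPM minus its mean in DMSO steady state libraries, for 48 of the 55 genes ordered by log2 change in heat shock with DMSO (rows) and 8 libraries (columns, rep. is the replicate). Blue is lower: the heat shock columns are blue in nearly all rows, RPS14B at the bottom is light red with DMSO and near white with 1-NA-PP1, and the second 1-NA-PP1 steady state column is bluer than the first.

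With 1-NA-PP1, heat shock lowered 32 of 55 members and raised 0 (edgeR), where 28.1% of all genes fell and 25.3% rose. The median log2 change was -0.54, with a range of -1.14 (RPS22B) to 0.34 (RPS14B). Both heat shock libraries were below both steady state libraries in 38 members, against 40% of all genes. Both were above in 1 member, RPS14B, against 36.5% of all genes. The count rested on single libraries: it was 51 without 1-NA-PP1 steady state replicate 2 (28.5% of all genes were then called lower) and 20 without replicate 1 of that group (28.2%). It was 15 without 1-NA-PP1 heat shock replicate 1 (20.4%) and 14 without its replicate 2 (20.5%). The median was -0.72 without steady state replicate 2 and -0.25 without replicate 1. Without that replicate 1, RPS14B was called higher (log2 change 0.66, adjusted p = 0.000829, edgeR).

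RPS22B (YLR367W), a copy of the gene for uS8, lies on chromosome XII at 855855 to 857371. It had 79.6 and 70.5 CPM in 1-NA-PP1 heat shock libraries, against 181 and 150.5 CPM in 1-NA-PP1 steady state libraries. Here the heat shock values were well below the others (log2 change -1.14, SE 0.11, adjusted p = 8.59e-05, edgeR). RPS13 had 71.6 and 69.4 CPM with heat shock, against 178 and 129 CPM at steady state, a log2 change of -1.12 (adjusted p = 0.000328, edgeR). RPS6A (-1.12) and RPS29A (-1.10) were next. RPS14B had 34.0 and 34.7 CPM with heat shock, against 32.6 and 21.7 CPM at steady state, so that its heat shock values were above both others, and its log2 change of 0.34 did not pass (adjusted p = 0.128, edgeR). RPS12 (-0.01), RPS0A (-0.07) and RPS2 (-0.16) also changed little.

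Both heat shock comparisons share no library. Over all genes, 28.9% were called lower with DMSO and 28.1% with 1-NA-PP1, so at most 28.1% passed as lower in both. The exact share was not counted. Of the members, 30 passed as lower in both, 9 with DMSO and not with 1-NA-PP1, 2 (RPS25A and RPS30A) with 1-NA-PP1 and not with DMSO, and 14 in neither. Without 1-NA-PP1 steady state replicate 1, 20 passed in both, 32 with DMSO and not with 1-NA-PP1, and 3 in neither. Without replicate 2, 51 passed in both, 1 with DMSO and not with 1-NA-PP1, and 3 in neither. The 2 sets of log2 changes had a Pearson correlation of 0.84 and a Spearman correlation of 0.81 over 55 members, a description over genes that share libraries. The Pearson correlation was 0.74 without 1-NA-PP1 steady state replicate 1 and 0.89 without replicate 2. The authors' deposited table for heat shock with DMSO, scaled by the authors' own factors, lists 53 members lower at an adjusted p under 0.05 and a member median of -1.02, where its median over all features is -0.32. The authors' deposited table for heat shock with 1-NA-PP1 lists 25 members lower and a member median of -1.23, where its median over all features is -0.66. The share of all features listed lower was not counted in either table, so the 53 and 25 cannot be set against it. RPS14B has a log2 fold change of -0.18 in the authors' deposited table with DMSO and -0.36 in that with 1-NA-PP1, the highest value of any member in both.

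**Figure D3:**
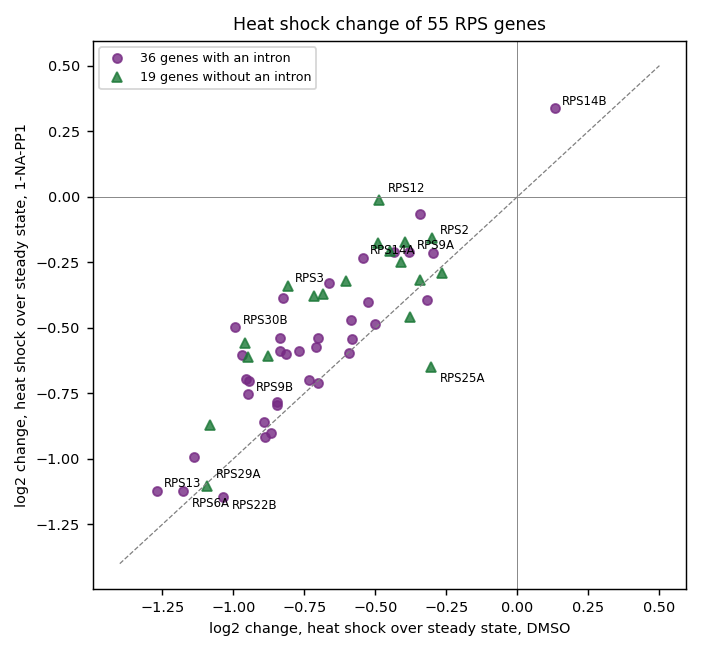
Log2 change in heat shock with DMSO (x axis) and with 1-NA-PP1 (y axis) for 36 genes with an intron (circles) and 19 without (triangles); the dashed line marks equal changes. RPS13, RPS6A, RPS22B and RPS29A lie at the lower left, RPS14B is the only gene above 0 on both axes, and most genes lie above the line.

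RPS genes hold a large share of the introns of yeast, and 36 members have an intron between coding exons. With DMSO, the members with an intron had a median heat shock log2 change of -0.79, with 30 of 36 called lower. The 19 without one had a median of -0.49, with 9 called lower, where 28.9% of all genes fell. More members were called with DMSO when either 1-NA-PP1 steady state library, neither part of that comparison, was left out. Those calls were not split by intron, so the difference in counts is uncertain. With 1-NA-PP1 the medians were -0.59 (27 of 36 lower) and -0.34 (5 of 19 lower), where 28.1% of all genes fell. Without 1-NA-PP1 steady state replicate 1 they were -0.32 (17 lower) and -0.08 (3 lower), and without replicate 2 -0.81 (35 lower) and -0.59 (16 lower). In the inhibitor comparisons the order was the other way, with medians of -0.46 with an intron and -0.54 without at steady state, and -0.30 and -0.38 under heat shock. These are descriptions of 2 sets of genes. RPS14B, with an intron, and RPS29A, without one, are exceptions to the order under heat shock. The features include the introns, so spliced and unspliced RNA were counted together.

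At steady state, RPS values were lower with 1-NA-PP1 than with DMSO in every member, but none passed the test over all genes. All 55 members had a negative log2 change in 1-NA-PP1 over DMSO at steady state, with a median of -0.48 and a range of -0.85 (RPS12) to -0.11 (RPS30A), where the median of all genes was 0.05. In edgeR, 0 members were called in either direction, as were 0% of all genes, 47 members (and 15% of all genes) were lower at an unadjusted p under 0.05, and the smallest adjusted p was 0.0679. Limma voom also called 0, and DESeq2 called 38 lower, with 12.3% of all genes. Both 1-NA-PP1 libraries were below both DMSO libraries in 54 members, against 28% of all genes. Large subunit genes had a median of -0.50.

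The size of the change depended on the replicate. Relative to the mean of the DMSO steady state libraries, the median member was at -0.24 in 1-NA-PP1 replicate 1 and at -0.73 in replicate 2, against -0.07 and 0.07 in the DMSO libraries themselves. Without replicate 2 of the 1-NA-PP1 group the median change was -0.24 and 0 members were called. Without replicate 1 it was -0.74 and 50 members were called lower, with 16.5% of all genes (edgeR). RPS12 (YOR369C) had 7.85 and 4.81 CPM with 1-NA-PP1, against 11.0 and 11.9 CPM with DMSO, a log2 change of -0.85 (SE 0.22, adjusted p = 0.0682, edgeR). RPS26B (YER131W) had 93.3 and 51.3 CPM with 1-NA-PP1, against 123 and 131 CPM with DMSO, a log2 change of -0.81. In both genes the 1-NA-PP1 values were lower and lay far apart from each other. RPS3 (-0.72) and RPS31 (-0.68) followed. RPS30A (YLR287C-A) had 74.1 and 69.5 CPM with 1-NA-PP1, against 72.1 and 82.9 CPM with DMSO, and was the only member whose groups overlapped. RPS9A (-0.25), RPS23A (-0.29) and RPS25A (-0.33) changed least after it.

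Under heat shock, 54 of 55 members had a negative log2 change in 1-NA-PP1 over DMSO, with a median of -0.32, beside 0.00 over all genes. EdgeR called 0 members, where it called 0.122% of all genes lower and 0.204% higher, and 15 members (and 7.1% of all genes) were lower at an unadjusted p under 0.05. Limma voom called 0 and DESeq2 called 2 lower, with 2.09% of all genes. Both 1-NA-PP1 libraries were below both DMSO libraries in 45 members, against 22.8% of all genes. RPS25A (YGR027C), a copy of the gene for eS25, a protein known for its role in internal initiation, had 21.2 and 24.2 CPM with 1-NA-PP1, against 40.3 and 32.3 CPM with DMSO. Its values were lower without overlap, and its log2 change of -0.68 (SE 0.13, adjusted p = 0.0703, edgeR) was the lowest of the members. RPS28A (-0.59), RPS15 (-0.57) and RPS6A (-0.56) followed. RPS30B (0.02), RPS7A (-0.03), RPS27B (-0.06) and RPS29B (-0.06) changed least. Each inhibitor comparison shares 2 libraries with each heat shock comparison, so their values stand side by side here without a measure of likeness. The inhibitor comparisons at steady state and under heat shock share no library, and their member log2 changes had a Pearson correlation of 0.27 and a Spearman correlation of 0.26 over 55 members (Pearson 0.18 without 1-NA-PP1 steady state replicate 1 and 0.41 without replicate 2).

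These directions are relative to the bulk of genes and depend on the scaling. The deposited factors named for the heat shock comparison are the numbers of the comparison of heat shock and steady state with DMSO. With them, the median member change under heat shock was 1.67 and 55 members were called higher. So were 99.9% of all genes, whose median was 1.98. Because these factors belong to other libraries, they give no direction for the members. The factors that lie behind the normalised counts deposited for that comparison were an alternative chosen after seeing the data, and with them the median member was at -0.92 and the median of all genes at -0.62. In both, the members stood about as far below the bulk as with TMM.

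**Figure D4:**
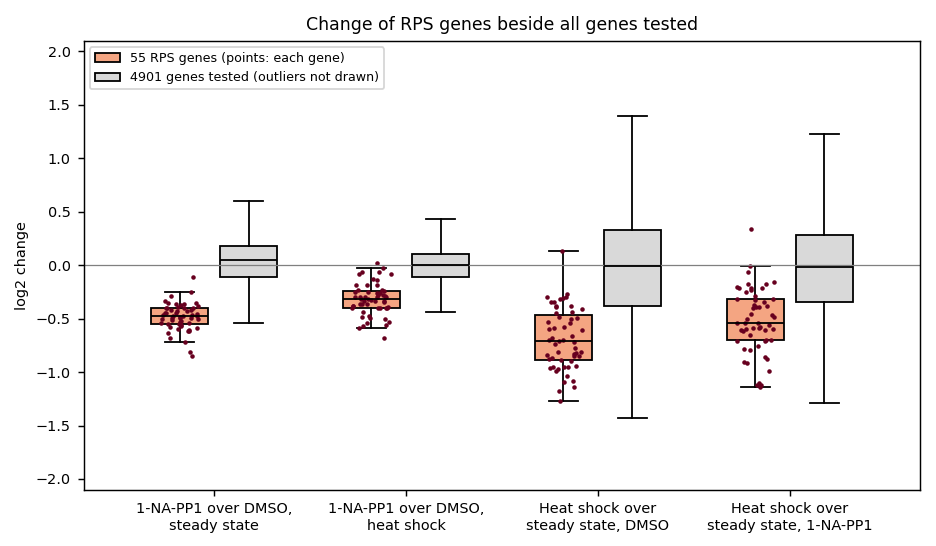
Log2 change in 4 comparisons for 55 RPS genes (left box of each pair, with a point per gene) and 4901 genes tested (right box); boxes span the quartiles, lines are medians and values beyond the whiskers of all genes are not drawn. The RPS medians are -0.48, -0.32, -0.71 and -0.54, while the grey boxes centre near 0.

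The difference between the heat shock changes with 1-NA-PP1 and with DMSO was positive in 45 of 55 members, with a median of 0.17. In edgeR, 0 members were called, as were 0% of all genes in the higher and 0.0204% in the lower direction, 0 members reached an unadjusted p under 0.05 (against 5.67% of all genes higher and 7.81% lower), and the smallest adjusted p was 0.403. DESeq2 and limma voom also called 0. The range ran from -0.35 (RPS25A) to 0.49 (RPS30B). Without 1-NA-PP1 steady state replicate 1 the median was 0.45 and 23 members were called higher, with 9% of all genes, and without replicate 2 the median was -0.06 and 0 were called (edgeR). RPS12 (0.48), RPS3 (0.47) and RPS7A (0.44) were next to RPS30B, and RPS22B (-0.11), RPS28A (-0.08) and RPS30A (-0.07) next to RPS25A.

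The A and B copies of a pair supply one protein, or nearly so, and their balance can be read within a library without scaling between libraries. The A copy's share of a pair's counts, which is not corrected for length, was above 50% in 7 of 23 pairs and below it in 16 as a mean over 8 libraries. Among the highest shares were those of RPS30 (93.1%), RPS27 (87.1%) and RPS23 (62.2%). The lowest were those of RPS21 (12.2%), RPS7 (18.1%), RPS22 (22.1%) and RPS18 (33.5%). RPS27A, RPS18A and RPS10A overlap a feature on the opposite strand, so the shares of these pairs are uncertain. The 95% Wilson interval of a share in 1 library reached 0.435 to 4.35 percentage points to each side, which covers counting error only.

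In 7 of 23 pairs all 4 heat shock shares lay outside the range of all 4 steady state shares, pooled over both treatments. This was 30.4% of pairs, against 9 of 32 large subunit pairs (28.1%). Between 1-NA-PP1 and DMSO libraries, pooled over both temperatures, no such separation was seen in any of the 23 RPS pairs or the 32 large subunit pairs. A pair whose share moves with heat can hardly separate in this pooling, so it does not show whether shares differ within a temperature. At both temperatures the RPS9A share was higher with 1-NA-PP1 than with DMSO without overlap, and the RPS6A share was lower. Pairs apart within a temperature were not counted. Among the 7 pairs apart between heat shock and steady state, the A share under heat shock was higher in RPS9 and RPS10 and lower in RPS14, RPS18, RPS21 and RPS29.

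RPS14 had the largest difference. RPS14A (YCR031C, chromosome III at 177399 to 178241) made up 44.4% and 38.2% of the pair's counts in 1-NA-PP1 heat shock libraries and 40.9% and 39.5% in DMSO heat shock libraries. At steady state its share was 52.6% and 48.9% with 1-NA-PP1 and 50.4% and 53.2% with DMSO. The mean difference, heat shock minus steady state, was -10.5 percentage points. RPS14A itself had 29.2 and 29.0 CPM in DMSO heat shock libraries, against 40.4 and 44.4 CPM in DMSO steady state libraries, a log2 change of -0.54 (adjusted p = 0.0787, edgeR, called lower under 4 of 12 alternatives). The log2 change of the A copy minus that of the B copy was -0.57 with 1-NA-PP1 and -0.68 with DMSO. RPS22A ends close to the end of RPS14B on the opposite strand without overlap in the authors' coordinates.

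RPS9, the uS4 pair, moved the other way. RPS9A (YPL081W) made up 48.3% and 50.3% of the pair's counts in 1-NA-PP1 heat shock libraries and 46.3% and 42.7% in DMSO heat shock libraries. At steady state it made up 38.8% and 41.7% with 1-NA-PP1 and 35.3% and 34.9% with DMSO. The heat shock shares were all higher, by 9.24 percentage points on average. RPS9B (YBR189W) had 112 and 129 CPM in DMSO heat shock libraries, against 223 and 242 CPM in DMSO steady state libraries, a log2 change of -0.95 (adjusted p = 0.00116, edgeR). RPS9A also fell, with 96.6 and 96.5 CPM against 122 and 130 CPM and a log2 change of -0.38 (adjusted p = 0.0155, edgeR), which was -0.33 (adjusted p = 0.0993) without DMSO steady state replicate 2. In the sequences above, the RPS9A window holds both a Rap1 and an Fhl1 core and the RPS9B window an Fhl1 core alone.

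The other pairs that separated moved by smaller amounts. The A share of RPS10 was 4.95 points higher under heat shock. The differences, heat shock minus steady state, were -5.73 points in RPS29, -4.99 in RPS18 and -2.91 in RPS21. RPS30 had the largest difference between copies with DMSO next to RPS14: RPS30A had 68.8 and 55.2 CPM with heat shock, against 72.1 and 82.9 CPM at steady state, and RPS30B 3.43 and 3.96 CPM, against 7.05 and 7.60 CPM. RPS30A did not pass (-0.32, adjusted p = 0.0548; called lower under 6 of 12 alternatives) and RPS30B fell (-0.99, adjusted p = 0.00429, both edgeR), a difference of 0.67, while the shares of RPS30A were above 91% in all 8 libraries and overlapped. RPS18 differed by -0.44 with DMSO. With 1-NA-PP1 the largest differences between copies under heat shock were those of RPS14 (-0.57), RPS29 (-0.55), RPS9 (0.54) and the near-identical RPS6 (-0.42).

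Under heat shock, 1-NA-PP1 set the copies of RPS25 apart the most. RPS25A made up 42.8% and 40.04% of the pair's counts in 1-NA-PP1 heat shock libraries, against 53.3% and 49.3% in DMSO heat shock libraries. RPS25A changed by -0.68 and RPS25B (28.4 and 36.2 CPM with 1-NA-PP1, against 35.3 and 33.2 CPM with DMSO) by -0.09 on the log2 scale, and neither passed. RPS28 was next, with a difference of -0.41 between copies. At steady state the largest differences were those of RPS30 (0.36) and RPS9 (0.30).

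**Figure D5:**
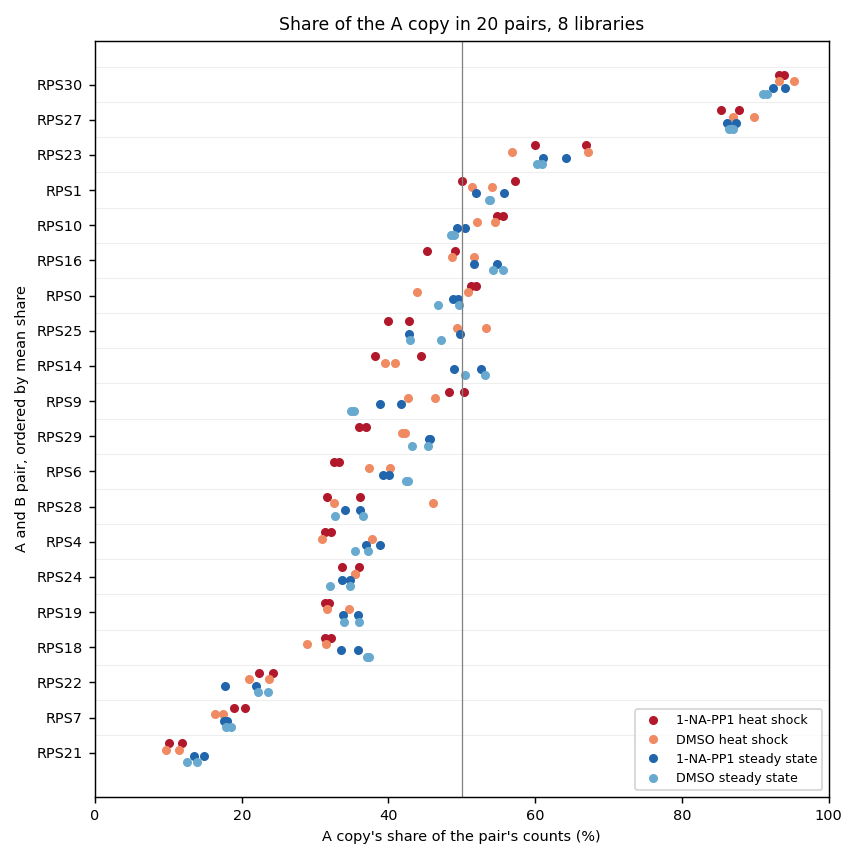
The A copy's share of a pair's counts (x axis, percent) in 20 of the 23 pairs ordered by mean share, with a point for each of 8 libraries coloured by group; the vertical line is 50%. RPS30 and RPS27 lie at the top and RPS21 at the bottom, the heat shock points of RPS14 lie left of its steady state points and those of RPS9 lie right of them.

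Genes around the RPS proteins were taken from lists chosen with earlier results of these data known. Of 32 assembly factors of the small subunit and ribosomal protein chaperones, 27 are features. With DMSO, heat shock lowered 12 of the 27 and raised 2 (edgeR), with a median of -0.41, where 28.9% of all genes fell and 29.6% rose. Among those lower were IMP3 (-1.12), RCL1 (-0.96), DHR2 (-0.92) and NOB1 (-0.69), and those higher were the kinase RIO1 (0.52) and YAR1 (0.34), the chaperone of Rps3. IMP3 is part of the early processing complex, RCL1 acts in cleavage of the pre-rRNA, DHR2 is an RNA helicase and NOB1 cuts the end of 18S rRNA. DHR2 was not called in edgeR without any 1 of the 4 DMSO libraries (adjusted p = 0.0839 to 0.189), nor was RIO1 without DMSO heat shock replicate 1 (adjusted p = 0.0635). YAR1 was 0.14 with library totals without TMM (adjusted p = 0.0735), and with the deposited factors YAR1 was 0.034 (adjusted p = 0.903) and RIO1 0.19 (adjusted p = 0.427). With 1-NA-PP1, heat shock lowered 3 and raised 4, with a median of 0.23 and RIO1 at 1.00, where 28.1% of all genes fell and 25.3% rose. Without 1-NA-PP1 steady state replicate 1 the median was 0.40, and without replicate 2 it was -0.04. In 1-NA-PP1 over DMSO at steady state 0 of the 27 were called, 23 were lower at an unadjusted p under 0.05 (15% of all genes) and the median was -0.64. Without 1-NA-PP1 steady state replicate 1 the median was -0.96, and without replicate 2 it was -0.37. In this list the difference between the heat shock changes had a median of 0.54, with 0 called. There 11 were higher at an unadjusted p under 0.05 (edgeR), as were 5.67% of all genes. This median of 0.54 became 0.82 without 1-NA-PP1 steady state replicate 1, and 0.30 without replicate 2.

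Of 21 regulators of ribosomal protein genes, 16 are features. RAP1, which binds RPS promoters, fell under heat shock by 1.10 on the log2 scale both with 1-NA-PP1 and with DMSO (adjusted p = 7.46e-06 and 6.52e-06, edgeR). CRF1, a corepressor that competes with Ifh1 for Fhl1, rose by 1.40 with 1-NA-PP1 and by 1.15 with DMSO. With DMSO 6 of the 16 rose and 2 fell, and with 1-NA-PP1 4 rose and 2 fell, so the shares that rose were near those of all genes (29.6% with DMSO and 25.3% with 1-NA-PP1). LST8, a TORC1 subunit, was the only one called in 1-NA-PP1 over DMSO under heat shock (log2 change -0.57, adjusted p = 0.0447, edgeR). Without any 1 of the 4 libraries of that comparison it was not called (-0.64 to -0.48, adjusted p = 0.0646 to 0.401, edgeR). Of 11 ribosome-bound proteins, heat shock lowered 3 and raised 0 with DMSO, and lowered 3 and raised 1 with 1-NA-PP1 (edgeR). The shares that fell were near those of all genes (28.9% with DMSO and 28.1% with 1-NA-PP1). Those lower in both comparisons were EGD1, EGD2 and BTT1, subunits of the nascent chain complex. They fell by 0.51, 0.56 and 1.10 with 1-NA-PP1 and by 0.34, 0.50 and 0.77 with DMSO. With DMSO, EGD1 was not called in edgeR without either steady state replicate or heat shock replicate 2 (adjusted p = 0.0704 to 0.131), nor EGD2 without steady state replicate 2 (adjusted p = 0.0780). With 1-NA-PP1 neither was called without heat shock replicate 1 (EGD1 adjusted p = 0.0519, EGD2 0.0506).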

How the data were processed

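Newly made RNA of 8 libraries was analysed. The authors deposited unscaled counts of reads for each protein-coding transcript. The submitters' processing notes list DESeq2, HTSeq, SAMtools, STAR 2.5.2b and cutadapt 1.9.1 with the build sacCer3, and neither their order nor the use of strand is given in the sources used here. The deposited normalised values that were checked, those of the heat shock comparison, are a signal: each library's counts over a constant of that library. Factor files were deposited beside them, each factor being a ratio to library 1. The deposited factors named for the heat shock comparison are the numbers of the DMSO comparison file, not the constants behind its normalised values. Per the file headers, the authors' heat shock tables hold a log2 fold change and an adjusted p-value per gene, and other files hold coordinates, which are deposited as positions.

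From the raw counts, edgeR 4.0.16 (R 4.3.3) fitted a quasi-likelihood model of 4 group means to all 8 libraries after filterByExpr (27 features left out) and TMM scaling. Tests were two-sided, with Benjamini-Hochberg adjustment over 4901 genes and a threshold of 0.05; with 2 against 2 libraries an exact permutation test cannot go below p = 0.333. Alternatives were DESeq2 1.42.0, limma 3.58.1 (voom), other scalings and filters, summed copies, a replicate term and leaving out each library of the comparison. RPKM used the feature length, and pair shares used raw counts with 95% Wilson intervals (scipy). Sequences come from the RefSeq R64 assembly, in which 4842 features matched and lay over their gene. The members, lists and the rule for naming genes were chosen with earlier results of these data known. The rule took, per comparison, the 4 highest and 4 lowest members, the pairs whose copies differed most, the ends of the level and share orders, members outside the pairs and called genes of the lists. Some members count in the totals, but their own values are not reported here, and figures that name each gene leave them out.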

Additional observations from a re-analysis of the deposited data

How the results depend on the processing

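The heat shock libraries hold fewer counts than every steady state library, and what depth limits was not tested. Counts of members called lower in heat shock with DMSO did not fall below 39 by more than 1.5 times under any alternative run. With 55 members they could not rise by that factor. The count did rise above 39 when either 1-NA-PP1 steady state library, neither part of this comparison, was left out. Library totals without TMM gave a median of -0.91 there, and RPS14B -0.070. DESeq2 called 38 members lower with 1-NA-PP1 at steady state and 2 under heat shock. The deposited factors gave medians of -1.02 (heat shock with DMSO) and -1.23 (heat shock with 1-NA-PP1, 5 lower). RPS14B was then at -0.18 with DMSO and -0.36 with 1-NA-PP1. For 1-NA-PP1 under heat shock the deposited factors repeat those of the DMSO comparison, and they gave a median of 1.67 (55 higher). There RPS25A was at 1.31, RPS28A 1.38, RPS15 1.41, RPS6A 1.43, RPS29B 1.93, RPS27B 1.902 and RPS7A 1.95, with RPS25B at 1.93 and LST8 at 1.40. The factors behind the deposited normalised counts, tried after seeing the data, gave a median of -0.92 for 1-NA-PP1 under heat shock, and -0.63 for RPS30B. These shifts follow the median of all genes under each scaling.

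Leaving out 1 library gave 0 to 50 members lower with 1-NA-PP1 at steady state, 14 to 51 lower and 0 to 1 higher in heat shock with 1-NA-PP1, and 0 to 23 higher for the difference of the heat shock changes, whose median ran from -0.057 to 0.45. Members near 0 turned. With 1-NA-PP1 under heat shock RPS25B ran from -0.26 to 0.087, RPS29B from -0.11 to 0.0048, RPS27B from -0.15 to 0.036 and RPS30B from -0.13 to 0.17. In heat shock with 1-NA-PP1, RPS2 ran from -0.35 to 0.068, RPS0A from -0.32 to 0.24 and RPS12 from -0.32 to 0.39. For the difference, RPS22B ran from -0.23 to 0.038, RPS28A from -0.35 to 0.44 and RPS30A from -0.18 to 0.15. RPS12 in heat shock with 1-NA-PP1 was 0.013 with RLE factors, 0.023 with limma voom and 0.015 with DESeq2.

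Replicate numbers share only a number: deviations of same-numbered libraries correlated at -0.31 to 0.26. With the replicate block 40 members fell in heat shock with DMSO and 31 with 1-NA-PP1, 0 were called in the other comparisons, the medians were -0.71 and -0.53, and RPS12 was 0.0073 with 1-NA-PP1. The block added RPS31 in heat shock with DMSO (adjusted p = 0.0424) and ended the call of LST8 (adjusted p = 0.0732, edgeR). Summed copies give no value for a single copy. A small count added to each copy moved no A share, and RLE factors no median RPKM, by more than the replicate SD. Causes were not tested.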
